A study of Mus musculus with 4 samples.

Results

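Chromatin accessibility was examined at 10 immediate-early genes, Egr1, Egr2, Egr3, Fos, Fosb, Fosl2, Jun, Junb, Ier2 and Atf3, among 22380 protein-coding genes. A region was assigned to a member when the protein-coding transcription start nearest to its centre belonged to that gene, or when the centre and a start of the gene were no more than 2.5 kb apart. By this rule the members held 37 of the 42613 accessible regions listed for E9.5 and 38 of the 46765 listed for E10.5. The members were chosen by name and not by their scores, although earlier results of these data were known. Regions with a centre within 2.5 kb of a start are called promoter-proximal and the others distal.

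The data are ATAC-seq, in which a transposase inserts sequencing adaptors into open chromatin, from wild-type mouse embryos of the NMRI strain. There were 2 biological replicates per stage, each the pair of forelimb buds of 1 embryo, and the authors merged them into 1 list of reproducible regions per stage. The E9.5 samples were forelimb buds dissected with the adjoining piece of trunk, and their protocol gives the stage as E9.75. The E10.5 samples were forelimb buds by their source and protocol, although their tissue label also names hindlimb buds. Stage and attached trunk tissue therefore cannot be told apart, and as replicates have no values of their own, no difference between the stages could be tested against embryo-to-embryo spread.

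Each region carries a score, 10 times the negative log10 of its best peak-calling p-value. Scores grow with sequencing depth, which is unknown for these lists, so the stages are compared by percentile. This is the percentage of regions of the same list with a lower score, with ties counted at their midpoint. Percentiles still depend on the make-up of each list, which held 16336 promoter-proximal regions at E9.5 and 15389 at E10.5. Widths, splitting and coverage of regions, also compared below, are not adjusted for depth. Scores of 3100 or more, at the ceiling of the p-value, were held by 843 regions at E9.5 and 450 at E10.5, and such regions are poorly ordered among themselves. All 5 markers of forelimb bud mesenchyme examined had a promoter-proximal region at both stages, with a median percentile of 86.7 at E9.5 and 91.4 at E10.5, although Tbx5, which defines the forelimb field, was low at 4.11 and 1.36. Of 5 trunk markers, 4 had such a region at each stage and Sox10, a neural crest gene, had none. Pax3 stood at 73.0 and 47.0, Myf5 at 59.5 and 27.4, Meox1 at 35.3 and 12.1, and Tcf15 at 75.7 and 83.0. Of the hindlimb genes, Tbx4 stood at 45.8 and 24.3, and Pitx1 at 59.2 with no region at E10.5. Among the remaining markers Sp8 and Tal1 had a region at both stages, Fgf8 only at E9.5 (42.7) and Gata1 at neither.

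Immediate-early genes are transcribed within minutes of a stimulus such as a growth factor, calcium entry, stress or mechanical handling, without prior protein synthesis. Serum response factor (SRF), bound to the CArG box, and CREB-family proteins, bound to the cyclic AMP response element (CRE), are the best-known activators acting at their promoters. The encoded proteins are mostly transcription factors. FOS-family proteins pair with JUN-family proteins to form AP-1, ATF3 is a stress-induced relative that joins this bZIP group, EGR proteins are zinc-finger activators, and IER2 is a small nuclear protein.

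The sequences shown here carry the promoter arrangement that several members shared. A CArG box (CC, then 6 bases that are each A or T, then GG) followed 7 bases later by CGTCA, the core of the CRE read on the opposite strand, lay before Fos, Fosb and Egr2. In the 3 stretches of 50 bases, on mm9 and read 5′ to 3′ on the strand of the gene, capitals mark the CArG box and the CGTCA. The Fos stretch is chr12:86814517-86814566 (plus strand), that of Fosb is chr7:19895631-19895680 (minus) and that of Egr2 is chr10:67000531-67000580 (plus).
Fos: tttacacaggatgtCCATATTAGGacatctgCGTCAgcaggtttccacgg
Fosb: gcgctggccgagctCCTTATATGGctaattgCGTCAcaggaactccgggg
Egr2: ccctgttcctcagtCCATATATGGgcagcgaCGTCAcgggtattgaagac

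The CArG box began 309 bases before the start of Fos, 272 before Fosb and 72 before Egr2. Over the 22 bases from the CArG box to the end of CGTCA, Fos and Egr2 were identical at 16 bases, while Fosb shared 15 with each of them. The Egr2 stretch precedes the main start of the gene but lies in an intron of a longer annotated transcript. Egr1 had the same arrangement before its start on chromosome 18, where its 5 CArG boxes began 407, 369, 353, 105 and 83 bases before the start.

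Between 500 bases before and 50 after the start, 6 of 22372 genes with sequence (0.0268%) held a CArG box followed by CGTCA at a spacing of 7 bases. Of these 6 genes 4 were members (Egr1, Egr2, Fos and Fosb), and the others were Dusp5, which encodes a MAP kinase phosphatase, and Sik3, a kinase. Of the spacings from 0 to 20 bases, only 7 was found in a member, and no other spacing was found in more than 4 genes. The spacing was searched after the sites had been seen, so the count is a description.

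**Figure D1:**
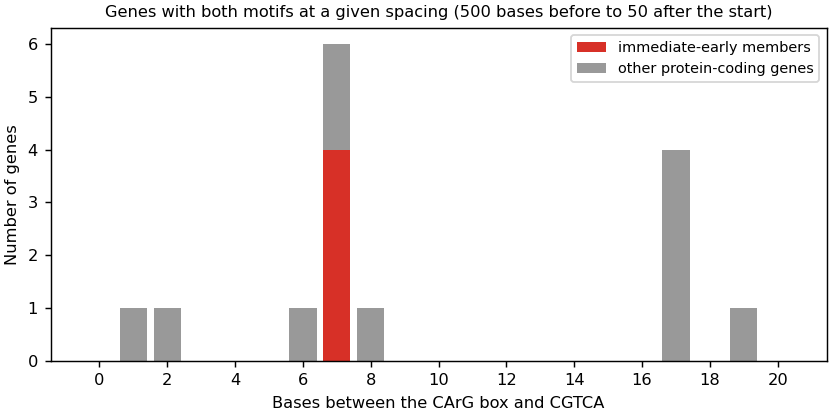
Number of genes (vertical axis) with a CArG box followed by CGTCA, by the number of bases between both motifs (horizontal axis), from 500 bases before to 50 after the start, with members in red and other protein-coding genes in grey. The spacing of 7 bases holds 6 genes, 4 of them members, and no other spacing holds a member.

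Jun and Ier2 had CRE-like sequences at the same distance from the start. Ier2 was the only member with the full CRE, TGACGTCA, at 45 to 38 bases before its start. Jun held TGACATCA, a variant of it, likewise 45 to 38 bases before its start. The stretches of 48 bases, with these motifs in capitals, are chr8:87186769-87186816 for Ier2 and chr4:94718931-94718978 for Jun, both on the minus strand of mm9.
Ier2: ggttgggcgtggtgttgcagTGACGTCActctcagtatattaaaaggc
Jun: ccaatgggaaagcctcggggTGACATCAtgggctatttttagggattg

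Other motifs were searched on both strands from 500 bases before to 50 after each start. A CArG box was held by 4 members (Egr1, Egr2, Fos and Fosb) against 2.81% of all genes, and the CRE by 1 member against 2.64%. The shorter CRE core TGACG, which overlaps the CRE and the CGTCA above, was held by 8 members against 31% of all genes, Egr3 and Fosl2 being the exceptions in this window. Among the members the AP-1 site TGANTCA was found only at Fos (12.8% of genes), and TATAAA only at Fos and Junb (25.3%). The EGR site GCGNGGGCG was found at Fosb, Fosl2 and Jun (8.69%), and TGACATCA only at Jun (4.16%). Of these sites, every CArG box, CRE, EGR site, AP-1 site and TATAAA lay inside an accessible region at both stages. This follows from the extent of the regions and says nothing about the motifs. At each member with such a site, a region spanned the whole searched window at both stages. The windows were rich in G and C, with a median of 63.3% against 51.7% over all genes and 7.62 CpG per 100 bases against 2.90, and Ier2 was the lowest member at 49.9% and 3.81.

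All 10 members had a promoter-proximal region at both stages, as did 61.3% of all protein-coding genes. At E9.5 their highest-scoring promoter-proximal regions were high in the list, with a median percentile of 93.3 against 84.4 for all genes with such a region at both stages. At E10.5 the best region overlapping each of these had a median percentile of 83.5. The highest-scoring E10.5 promoter-proximal regions also had a median of 83.5 for the members, against 83.1 for all genes. The percentile was lower at E10.5 for 9 of 10 members, where 58.7% of all genes were lower, and for 56.2% of the genes that started at or above the lowest member's E9.5 percentile. The median difference, E10.5 minus E9.5, was -9.02 percentile points for the members, -1.32 for all genes and -0.59 for genes of like E9.5 percentile. Of the trunk markers above, 3 of 4 with a region were likewise lower at E10.5, and the part of trunk tissue in the members' difference was not tested.

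**Figure D2:**
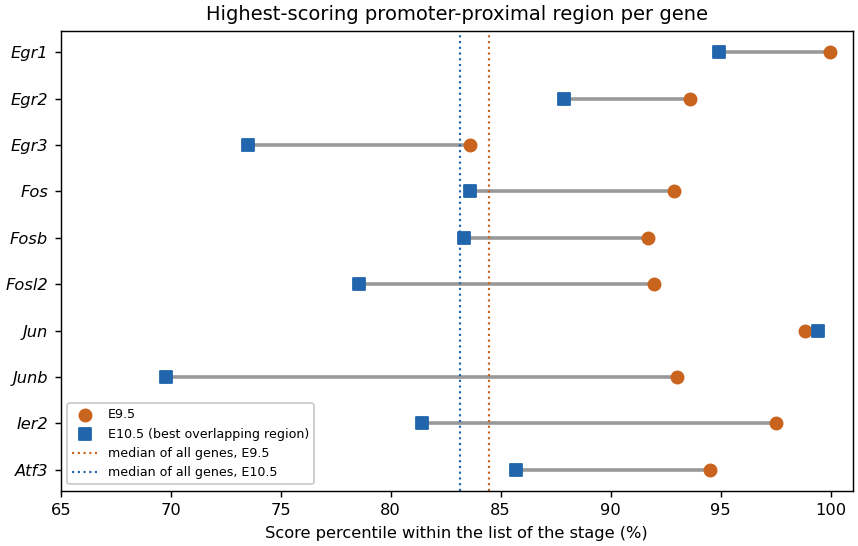
Score percentile of each member's highest-scoring promoter-proximal region at E9.5 (orange circles) and of the best E10.5 region overlapping it (blue squares), 1 row per gene. Dotted lines are the all-gene medians, 84.4 and 83.1, of the highest-scoring promoter-proximal region at each stage. The E10.5 value is to the left of the E9.5 value for 9 genes, and Jun is at the score ceiling at both stages.

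The EGR genes began from very different levels. Egr1, a growth-factor-induced activator, had a score of 3233.06 at E9.5, tied for the highest in the list among 8 regions, and 1790 at E10.5, with percentiles of 99.99 and 94.9. Its region narrowed from 3632 to 2131 bp, and most of the loss lay inside the gene, where the edge moved from 1495 to 408 bp after the start. Egr2, also known as Krox20 and needed for hindbrain segmentation, had 2086.11 and 1104.8 (percentiles 93.6 and 87.9), and its region went from 4188 to 3030 bp.

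Egr3, which is needed for muscle spindles, was the lowest member at E9.5, with a score of 1204.22 (83.6) in a region of 3656 bp across the start. At E10.5 this region was overlapped by a pair of separate regions, and neither covered the start. The stronger, with a score of 543.99 (73.5), had its centre 2.63 kb upstream and so counts as distal, just outside the limit of 2.5 kb. The weaker, with a score of 262.59 (53.0), ran from -1010 to -229 bp. For all genes with the start inside an E9.5 region, the start was also inside an E10.5 region in 92.7%, and 9 of 10 members followed this, Egr3 being the exception. A further Egr3 region in an intron (chr14:70477874-70479093, score 175.17 at E9.5) had no overlapping region at E10.5.

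All 3 FOS-family members had a lower percentile at E10.5. Fos, the classical AP-1 partner of JUN, had scores of 1990.52 and 879.46 (92.9 and 83.6), with a region of 3498 bp that at E10.5 was split into pieces of 2212 and 891 bp. Fosb had 1849.21 and 868.2 (91.7 and 83.4), and its stronger E10.5 piece lay inside the gene from 820 to 2115 bp, while the piece over the start scored 578.32. Fosl2, which encodes FRA2, had 1880.53 and 685.17 (92.0 and 78.5), with a region of 2319 bp that stayed whole at 1986 bp. Fosl2 is the longest member at 21360 bp, and just 2.85% (E9.5) and 2.03% (E10.5) of its body was accessible.

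Jun and Junb stood far apart at E10.5. Jun had a score of 3100, at the ceiling, at both stages (98.8 and 99.4), and its region of 4626 bp at E9.5 was 4611 bp at E10.5. Junb had a score of 2010.23 at E9.5, then 469.72 (93.0 and 69.8), a difference of -23.3 percentile points that was the largest fall among the members by overlapping region. Between the top promoter-proximal regions of each stage Egr3 fell further, at -30.6 points. The single E9.5 region of Junb, 5454 bp from -1985 to 3468 bp, covered the whole gene. At E10.5 it was replaced by regions from -1884 to -756, from -598 to 547 and from 1573 to 2721 bp, with scores of 469.72, 424.76 and 382.03.

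The last members, Ier2 and Atf3, had the widest E9.5 regions together with Junb. Ier2 had scores of 2909.81 and 783.3 (97.5 and 81.4), and its E9.5 region of 6450 bp covered the whole gene of 1522 bp. At E10.5 a region of 4677 bp remained over 99.9% of the gene, and a second piece with a score of 571.21 stood 2.61 kb downstream of the start. Atf3 had 2235.06 and 980.72 (94.5 and 85.7), and its region of 5027 bp was overlapped at E10.5 by pieces of 2569 and 1684 bp, the latter with a score of 189.71 centred 2.75 kb upstream.

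Set against all genes, the falls of single genes were not rare. Of all genes with an overlapping region, 7.32% fell further than Junb and 33.3% fell further than Egr1, the smallest fall among the 9. Differences were narrower among genes of like E9.5 percentile, with a lower quartile of -4.34 points against -8.00 for all genes. The 9 falls ran from -5.07 at Egr1 to -23.3 at Junb, and those of genes below the score ceiling at E9.5 all lay below that -4.34. Egr1 scored 3233.06 at E9.5, within the ceiling, so its place relative to -4.34 rests on an order that is poorly resolved. Jun was at the score ceiling at both stages, so its percentiles reflect how many regions tie there and show no direction. When ranked only among promoter-proximal regions, the members' median difference was -20.1 points and that of all genes -2.19, with 58.1% of genes lower.

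**Figure D3:**
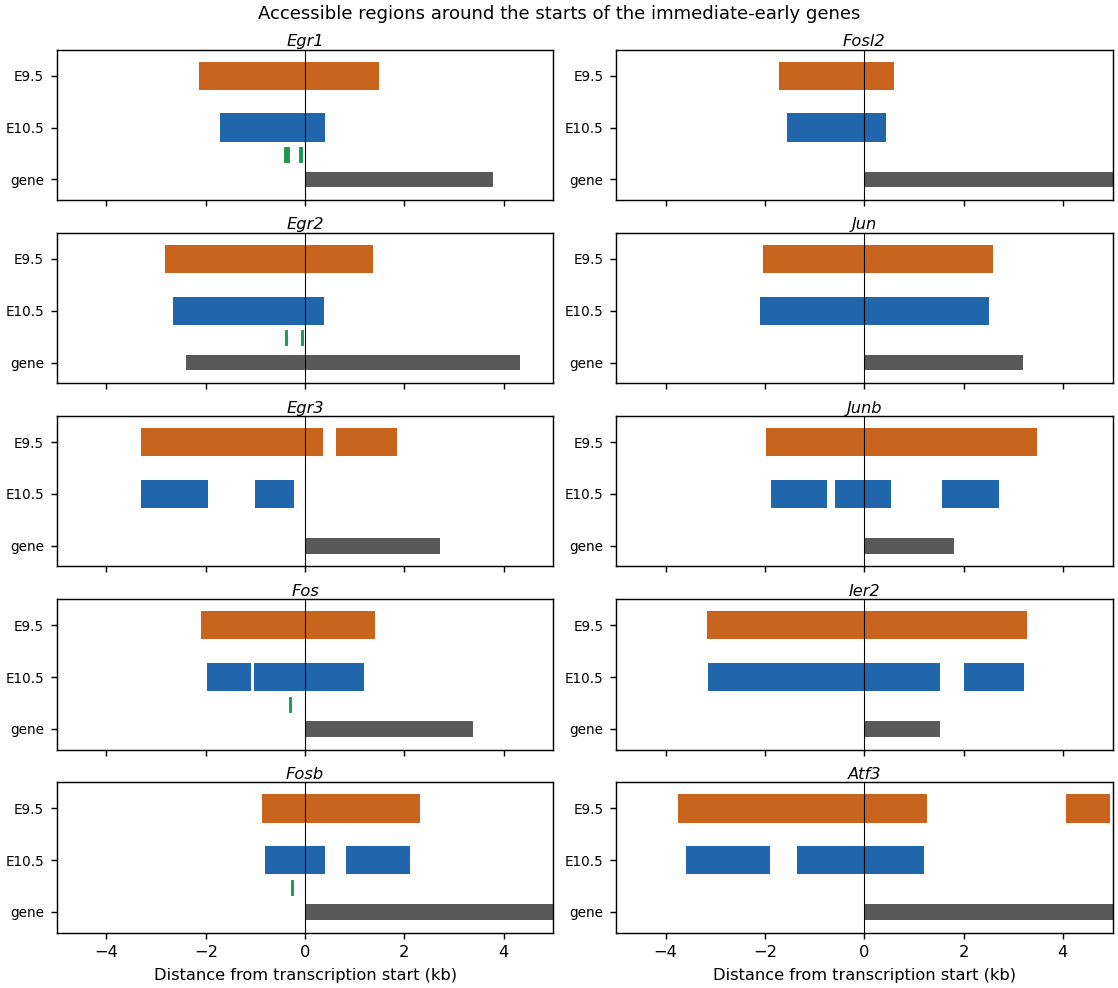
Accessible regions within 5 kb of the start of each member at E9.5 (orange) and E10.5 (blue), by distance from the start in kb along the gene's strand, with the gene body in grey and CArG boxes up to 500 bases before the start as green ticks. The E9.5 region was overlapped by 2 or more E10.5 regions at Egr3, Fos, Fosb, Junb, Ier2 and Atf3, and Jun shows nearly the same extent at both stages.

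The members' regions were wide and, at E10.5, often broken. Their top regions had median widths of 3922 and 2172 bp in order of stage, where all genes had 1738 and 1503 bp. The top E9.5 region overlapped 2 or more E10.5 regions at 6 of 10 members, 3 of them at Junb, against 3.21% of all genes. Wide regions were split more often in general: the share was 13.0% among genes whose region was at least as wide as the narrowest member's (2319 bp), and 37.8% among those at or above the members' median of 3922 bp, where 3 of 5 members were split. Fewer bases within 2.5 kb of the start were accessible at E10.5 at 9 of 10 members and at 75.6% of all genes, with a median ratio of E10.5 to E9.5 of 0.778 and 0.914.

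Much of the gene body of the members was accessible, and most of them are short genes. Median gene body coverage was 49.96% (E9.5) and 29.1% (E10.5), against 5.57% and 4.76% for all genes, whose median length is 24455 bp where the members' is 3581 bp. For genes no longer than Atf3, the second longest member at 13045 bp, it was 20.02% and 15.5%. Their median length of 6051 bp still exceeded that of the members, so length was not fully matched. Coverage was lower at E10.5 at all 10 members and at 67.7% of all genes. It went from 100% to 43.3% at Junb and from 57.9% to 0% at Egr3, and was 81.4% and 78.7% at Jun.

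Overlap between the stages was examined next, counting 1 shared bp as overlap. At E9.5, 28 of 37 member regions overlapped a region at E10.5, or 75.7% against 70.1% of all regions. The 95% Wilson interval was 59.9 to 86.6% (counting error only) and so includes the share of all regions. The 28 comprised 10 of 11 promoter-proximal regions, where 86.9% of all such regions overlapped, and 18 of 26 distal regions, where 59.7% did so. At E10.5, 35 of 38 overlapped a region at E9.5 (92.1%, interval 79.2 to 97.3%), namely 14 of 14 promoter-proximal regions (94.7% of all) and 21 of 24 distal regions (87.5%, interval 69.0 to 95.7%, against 50.4% of all). Of these 24 distal regions, 3 were the pieces of E9.5 promoter-proximal regions at Atf3, Egr3 and Ier2 described above, and without them 18 of 21 were shared (85.7%, interval 65.4 to 95.02%). Since distal regions of higher score overlap more often in general, the higher-scoring 50% of each list are the closer comparison. There 12 of 12 member distal regions at E9.5 overlapped a region at E10.5, against 77.1% of all, and 14 of 15 the other way, against 64.6%. The 15 include the pieces at Egr3 and Ier2, which overlap an E9.5 region by definition. The scores were still not matched: median percentiles were 78.2 for members against 63.3 for all at E9.5, and 74.7 against 66.8 at E10.5.

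The 18 shared distal regions did not move one way. An E10.5 partner of lower percentile was found for 9 and of higher percentile for 9, with 41.8% of all shared distal regions lower, and a median difference of 0.35 points against 4.04 for all. The differences ranged from -41.3 to 67.0 points, both at Jun.

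**Figure D4:**
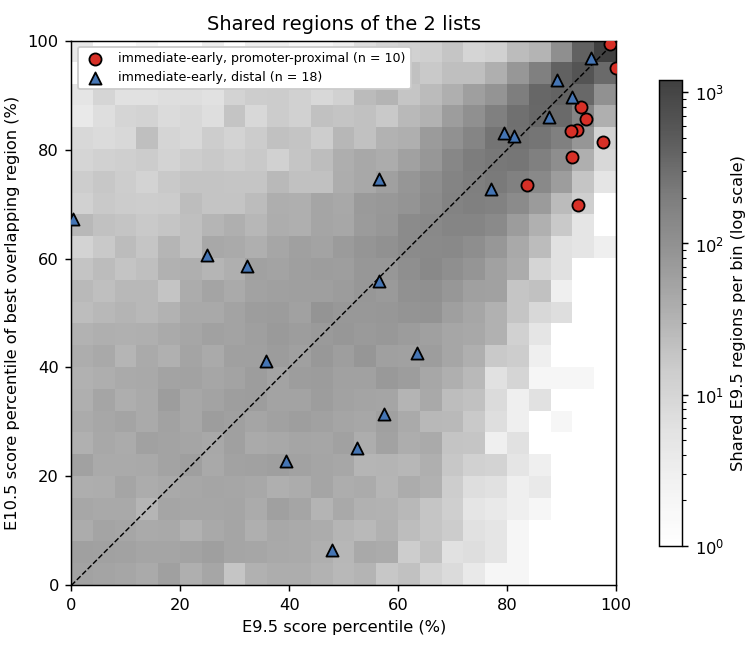
E9.5 percentile (horizontal) against the percentile of the best overlapping E10.5 region (vertical) for shared regions, with all shared E9.5 regions as grey bins on a log scale, member promoter-proximal regions as red circles (n = 10) and member distal regions as blue triangles (n = 18). The dashed line marks equal percentiles. Of the circles 9 lie below it, and the triangles lie 9 below and 9 above.

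Distal regions were unevenly spread over the members. Jun had 8 at E9.5 and 9 at E10.5, Fos 6 and 5, Egr3 4 and 3, Fosb 4 and 3, Atf3 2 and 2, Ier2 1 and 2, and Egr2 1 and 0, while Egr1, Fosl2 and Junb had none. Among all genes, 58.9% (E9.5) and 58.4% (E10.5) had no distal region. The nearest other protein-coding start limits what a gene can be assigned: it lay 3.90 kb from Egr1 (Gm17507), 3.30 kb from Fosl2 (Gm10463) and 7.26 kb from Junb (Prdx2), while the neighbour on the far side of Jun, Fggy, was 505 kb away. Assignment by distance does not show which gene a region acts on.

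The highest-ranked distal region belonged to Fos. It lay 18.5 kb upstream (chr12:86795537-86797136 at E9.5), outside annotated genes, with scores of 2409.12 at E9.5 (percentile 95.4) and 2177.79 at E10.5 (96.8). At both stages it ranked above the Fos promoter-proximal region, which stood at 92.9 and 83.6. A further Fos region 12.3 kb downstream of the start (chr12:86826342-86828008) had 1486.11 and 997.65 (87.7 and 86.0). Weaker Fos regions were less even: 13.9 kb downstream the scores were 439.82 and 200.73, 21.7 kb upstream 339.29 and 155.33, and 18.4 kb downstream 139.77 and 335.1.

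Ier2 and Fosb had strong distal regions nearby. The Ier2 region 6.86 kb downstream (chr8:87178408-87181384) had scores of 1607.32 and 1512.91 (89.2 and 92.8), so that it stood below the Ier2 promoter-proximal region at E9.5 and above it at E10.5. Fosb had regions 10.1 kb upstream (chr7:19904924-19906058, scores 972.71 and 854.13, percentiles 79.3 and 83.0), 16.9 kb upstream (chr7:19911498-19913178, 867.96 and 530.18) and 9.03 kb downstream (chr7:19885668-19887061, 326.79 and 286.03).

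Atf3 and Jun had their strongest distal regions far upstream, within non-coding genes. The Atf3 region lay 41.2 kb upstream in the lincRNA D730003I15Rik (chr1:193047534-193049336), with scores of 1071.16 and 832.95 (81.2 and 82.5). The Jun region lay 109 kb upstream in the processed transcript BC042782 (chr4:94827323-94828903), with 1880.07 and 1218.78 (92.0 and 89.6).

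Other regions upstream of Jun ranked differently at the stages. The region 46.0 kb upstream had scores of 67.54 and 425.94 (percentiles 0.34 and 67.3), and that 227 kb upstream had 326.39 and 572.34 (56.5 and 74.7). The region 85.7 kb upstream went the other way, with 243.7 and 95.78 (47.9 and 6.53). All 3 E10.5 member regions without an E9.5 partner belonged to Jun, and 1 of them was in the higher-scoring 50% of the list, 21.2 kb upstream (chr4:94739570-94740717, score 593.04, percentile 75.5).

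The 9 E9.5-specific member regions, of 37, belonged to Atf3, Egr2, Egr3, Fos, Fosb and Jun, and were weak. Their scores were 82.97 to 197.82, with no percentile above 40.5, and they include the only distal region of Egr2, 83.4 kb upstream. Of all E9.5 regions 70.1% overlapped one at E10.5, against 75.7% of the members' regions. Since distal regions of higher score overlap more often in general, the low scores were not shown to be particular to the members. Distal regions at Egr3 shared by both stages had low scores, 281.33 and 137.16 at 20.7 kb upstream and 192.65 and 131.44 at 38.5 kb upstream.

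**Figure D5:**
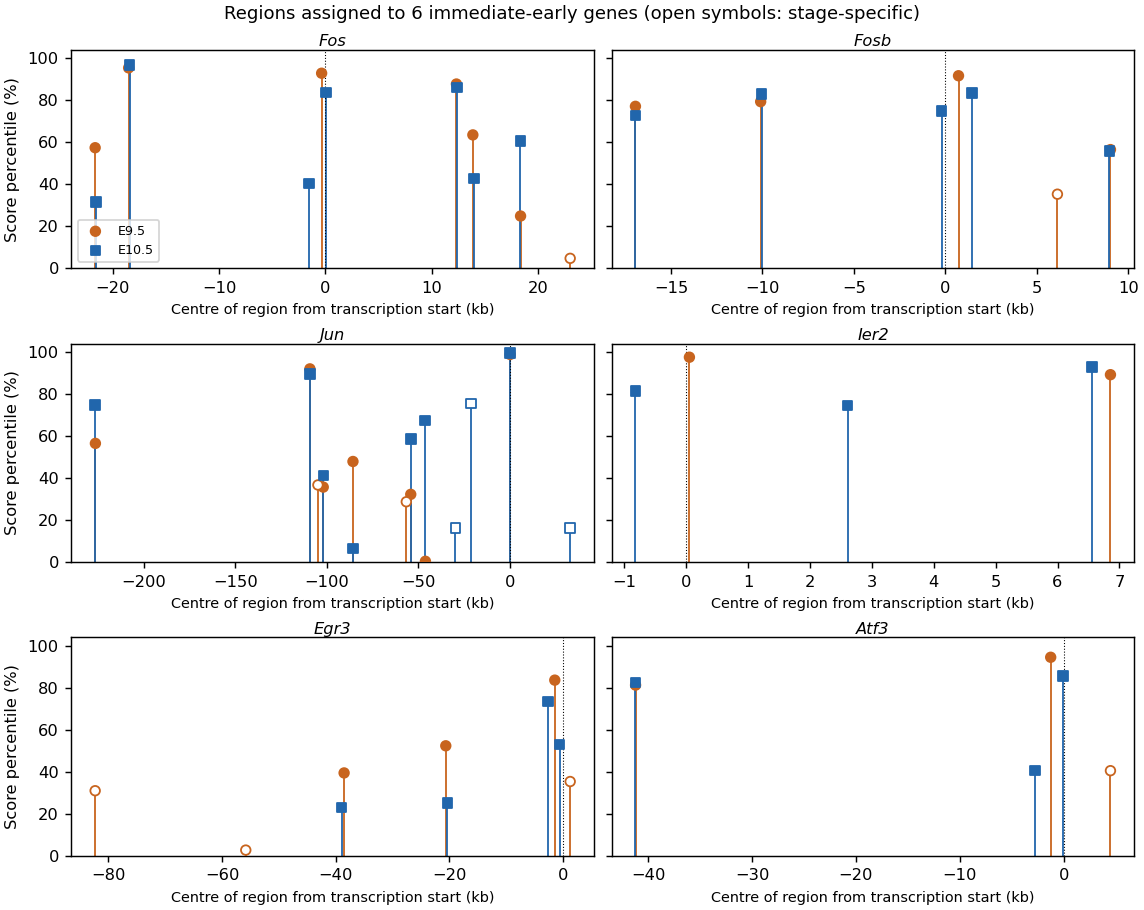
Score percentile (vertical axis) of every region assigned to Fos, Fosb, Jun, Ier2, Egr3 and Atf3 by distance of its centre from the start in kb, at E9.5 (orange circles) and E10.5 (blue squares), with open symbols for regions that overlap none at the other stage. The Fos region 18.5 kb upstream stands at 95.4 and 96.8, and the single open symbol above the 50th percentile is the Jun region 21.2 kb upstream at E10.5.

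The 301 bp at the centre of the distal regions were searched for the AP-1 site, the CRE and the CArG box. TGANTCA was found in 2 of 26 member regions at E9.5 (7.69%, against 8.85% of all distal regions) and in 4 of 24 at E10.5 (16.7%, interval 6.68 to 35.9%, against 9.16%). TGACGTCA was in none at either stage, which allows up to 12.9% and 13.8% by the Wilson interval, and it was in 0.472% and 0.453% of all distal regions. A CArG box was in 1 member region at each stage, against 1.52% and 1.73% of all, that 12.3 kb downstream of Fos at E9.5 and that 2.63 kb upstream of Egr3 at E10.5. Both regions overlap one of the other stage, so these hits depend on where the 301 bp fall and on the distal label. At Egr3, TGANTCA was found 38.5 kb upstream only at E9.5 and 20.4 kb upstream only at E10.5, also in shared regions.

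Related genes were taken from lists of AP-1 partners, other immediate-early genes, inducers and feedback corepressors. Among 8 AP-1 partners, all 6 with an overlapping region at both stages had a lower percentile at E10.5, with a median difference of -17.6 points. Batf had no promoter-proximal region at either stage, Fosl1 had a weak region at E9.5 only (score 99.65), and Jund had 3100 and 1944.96. Among 18 other immediate-early genes, 11 of 17 were lower, near the 58.7% of all genes, with a median of -5.37. The 6 others include Klf10 and Myc, which were at the ceiling at both stages. Egr4, the remaining EGR gene, had a region at E9.5 only (198.13). Scores reached the ceiling at Klf10 and Myc at both stages, at Nr4a3 at E9.5 (3100, then 1988.21) and at Nr4a2 at E10.5 (2968.52, then 3223.52).

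The inducers, which comprise SRF with its cofactors and CREB1, showed no common direction. Of 7 genes 4 were lower, with a median difference of -0.01 points. Of the feedback corepressors Nab1 and Nab2, which restrain EGR proteins, 1 was lower, and their median was -11.2. Over all 35 genes of these lists 22 of 32 were lower, against 58.7% of all genes, with a median of -4.48 points. The top region of 8 of 34 was overlapped by 2 or more E10.5 regions, against 3.21% of all genes. This comparison was not matched for width, and wide regions were split more often in general, as given above.

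The genes whose promoter score and gene body coverage were most like the members' medians were Arhgef25, Lin7b, 2700081O15Rik, Id4 and Fstl3. Likeness was the Euclidean distance over these values as percentiles among 13728 genes at both stages, and it was 2.43 for Arhgef25 and 3.78 for Fstl3.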

How the data were processed

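The authors mapped reads to mm9 with Bowtie 1.1.0 (unique reads, at most 2 mismatches), called regions with MACS 1.4 and combined both replicates per stage with MSPC (stringent p of 1e-10, weak p of 1e-06). The deposited score of each region is 10 times the negative log10 p-value. Depth is unknown and no values per replicate were given, so intervals cover counting error only.

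Regions were assigned to starts of protein-coding transcripts (GENCODE vM1, 70064 starts) by their centre, and sequences were read from the NCBIM37 (mm9) genome, with Python 3.11.15, numpy 2.4.6, scipy 1.17.1 and pandas 2.3.3. Percentiles count ties at their midpoint. Code was tested on simulated regions. All 10 members were named, with the 10 highest-scoring distal regions per list, stage-specific distal regions of the higher-scoring 50%, and genes of the related lists without a region at a stage or at the score ceiling. Weaker distal regions beyond this rule, tissue markers, the 7-base spacing, TGACATCA and the comparison of percentile differences were chosen after values were seen. The members and lists were chosen with earlier results of these data known. A promoter site of 1 member is not reported here.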

Additional observations from a re-analysis of the deposited data

How the results depend on the processing

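Of 120 alternatives, 105 counted as the same as the reported value and 15 as moved. However, 70 of the 120 only left out 1 gene. Of the other 50, 36 counted as the same and 14 as moved. No alternative reversed a direction, but most of the results are counts, shares or medians that have no direction to reverse. For counts of members with a motif, counting as the same meant a limited ratio to the reported count and not an interval. The number of members with a promoter-proximal region at both stages went from 10 to 7 within 1 kb and still counted as the same. With reciprocal overlap of 50%, 63.2% of E10.5 member regions were shared. Restricted to 1 kb from a start, 100% were shared at each stage (8 of 8 and 9 of 9), 8 members at E9.5 and 9 at E10.5 kept a promoter-proximal region, and the E10.5 median percentile was 81.4. With starts of all gene types the members held 26 regions at E9.5 and 27 at E10.5, where 37 and 38 were reported. Of the 27, 100% were shared, so the 3 Jun regions without an E9.5 partner were not among them. Ranked among promoter-proximal regions only, the median percentiles were 83.7 and 61.0 and the median difference was -20.1. Gene body coverage was 40.5% at E9.5 with the higher-scoring 50% of regions, and 35.6% and 15.2% over exons. The higher-scoring 50% held 12 and 15 distal regions. Within 250 bases 2 members had a CArG box.

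Without 1 gene at a time, E9.5 sharing was 73.3 to 80.6%, E10.5 sharing 90.3 to 100% (100% without Jun), the median percentiles 93.0 to 93.6 and 83.4 to 83.6, coverage 43.8 to 56.1% and 23.2 to 34.9%, and the median difference -9.25 to -8.80 points. Leaving out a replicate could not be run, because the lists hold no values per replicate. No paired analysis was possible because the stages come from different embryos whose replicates were merged.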
